A study of Mus musculus with 6 samples.

Results

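Transcripts of 9 genes that mark the ventral forebrain lineages from which cortical interneurons arise were examined in the piriform cortex of Gad2-Cre mice. They are the homeobox genes Dlx1, Dlx2, Dlx5 and Dlx6, the antisense RNA Dlx6os1, the LIM homeobox gene Lhx6, the zinc finger genes Sp8 and Sp9, and the prospero homeobox gene Prox1. They were chosen by gene name from the 53715 genes of the count table. Those names matched 10 rows, because Dlx6os1 also names a short miscellaneous RNA (ENSMUSG00000098326), which held no read in any library. The other 9 rows all passed the filter on low counts and were among the 16721 genes tested.

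All mice carried Cre recombinase under the control of Gad2, which encodes an enzyme that makes the inhibitory transmitter GABA. The piriform cortex, part of the olfactory cortex, received on 1 side an adeno-associated virus. The 3 Caspase3 libraries came from mice given AAV-DIO-Caspase3, in which Cre switches on an executioner protease of apoptosis, and the 3 GFP libraries from mice given AAV-DIO-GFP, in which Cre switches on a fluorescent protein. Polyadenylated RNA of the tissue was sequenced in bulk, so fewer cells of a type and less RNA per cell cannot be told apart. Any Gad2-expressing cell that the virus reaches can be affected, whatever its lineage. The labels used here name no age, sampled side or interval after injection. They do not say whether each library is its own mouse, and every p-value therefore refers to the scatter of 6 libraries, part of which may be technical.

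The Dlx genes encode homeodomain transcription factors that are switched on in the embryonic ganglionic eminences, where they promote GABAergic fate, migration and survival, and several stay on at a low level in mature interneurons. Lhx6 acts in the medial ganglionic eminence and is kept by parvalbumin and somatostatin interneurons, whereas Prox1 and Sp8 are associated with interneurons of the caudal ganglionic eminence. The lateral eminence, which uses Dlx genes, Sp8 and Sp9, gives rise to olfactory bulb interneurons and to the GABAergic projection neurons of the neighbouring striatum. Prox1 is also made outside interneurons, in dentate granule cells, cells of the oligodendrocyte lineage and lymphatic endothelium.

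Positions are those of the deposited table (GRCm38) and were identical in GENCODE M21. Dlx1 (ENSMUSG00000041911, chromosome 2, 71528113 to 71533981, plus strand) and Dlx2 (ENSMUSG00000023391, chromosome 2, 71543408 to 71546754, minus strand) face each other across 9.43 kb. Gad1 lies 0.926 Mb before Dlx1, and Sp9 (ENSMUSG00000068859, chromosome 2, 73271925 to 73284706) lies 1.73 Mb beyond Dlx2. Lhx6 (ENSMUSG00000026890, 36081953 to 36105408, minus strand) is on the same chromosome. Dlx6 (ENSMUSG00000029754, chromosome 6, 6863334 to 6868568, plus strand) and Dlx5 (ENSMUSG00000029755, 6877805 to 6882085, minus strand) form the other convergent pair, 9.24 kb apart. Dlx6os1 (ENSMUSG00000090063, 6820189 to 6871592, minus strand) runs across Dlx6 on the opposite strand. Sp8 (ENSMUSG00000048562) occupies 118846329 to 118852576 of chromosome 12, and Prox1 (ENSMUSG00000010175) occupies 190118035 to 190170714 of chromosome 1.

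Overlaps bear on the counts, because the library kit marks the strand, per the labels' protocols, but no source used here says whether reads were counted by strand. Exons of Dlx6os1 and Dlx6 share no base in GENCODE M21, although their gene bodies overlap. Of the exon bases of Dlx1, 6.21% are shared with its antisense RNA Dlx1as, and of those of Sp9, 5.35% are shared with Cir1, a protein-coding gene on the other strand with 3091 reads in all against 246 for Sp9. The share was 4.38% for Dlx6 with Dlx6os2 and 1.59% for Prox1 with Prox1os, both partners with few reads. Reads in the shared bases could belong to either partner.

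The RefSeq promoter table (GRCm38.p6) held 13 starts for 7 of the 9 genes. The 250 bases before a start are shown for Dlx6os1, Sp8 and Sp9 and for Prox1. The first 3 had lower levels in every Caspase3 library than in any GFP library, though none passed the test described below. The levels of Prox1 overlapped between the groups. Sequences read 5′ to 3′ on the strand of the gene. Capitals mark TAATTA, the core bound by many homeodomain proteins, and GGGCGG or its complement CCGCCC, the GC box bound by Sp-family proteins. Both motifs were searched on both strands and cannot overlap each other.
Dlx6os1, chr6:6869534-6869783, minus strand: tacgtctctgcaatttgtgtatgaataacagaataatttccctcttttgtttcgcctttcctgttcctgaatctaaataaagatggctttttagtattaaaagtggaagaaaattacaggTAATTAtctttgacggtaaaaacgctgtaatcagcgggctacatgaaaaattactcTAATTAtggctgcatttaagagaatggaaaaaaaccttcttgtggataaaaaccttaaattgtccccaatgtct
Dlx6os1, chr6:6861684-6861933, minus strand: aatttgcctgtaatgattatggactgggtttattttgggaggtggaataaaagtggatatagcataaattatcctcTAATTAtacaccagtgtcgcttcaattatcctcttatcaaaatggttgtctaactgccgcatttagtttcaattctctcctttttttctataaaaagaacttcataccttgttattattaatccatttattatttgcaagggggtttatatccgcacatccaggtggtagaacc
Sp8, chr12:118846079-118846328, plus strand: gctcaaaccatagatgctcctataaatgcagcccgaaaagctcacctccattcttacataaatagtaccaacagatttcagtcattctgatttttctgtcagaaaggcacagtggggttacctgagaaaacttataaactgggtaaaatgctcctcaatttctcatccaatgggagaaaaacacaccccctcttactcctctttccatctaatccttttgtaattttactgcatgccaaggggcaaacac
Sp9, chr2:73271676-73271925, plus strand: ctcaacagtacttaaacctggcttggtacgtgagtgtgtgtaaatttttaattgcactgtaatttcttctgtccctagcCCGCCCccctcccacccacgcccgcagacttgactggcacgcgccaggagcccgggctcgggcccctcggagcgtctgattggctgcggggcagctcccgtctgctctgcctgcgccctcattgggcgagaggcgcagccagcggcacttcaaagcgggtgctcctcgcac
Prox1, chr1:190170828-190171077, minus strand: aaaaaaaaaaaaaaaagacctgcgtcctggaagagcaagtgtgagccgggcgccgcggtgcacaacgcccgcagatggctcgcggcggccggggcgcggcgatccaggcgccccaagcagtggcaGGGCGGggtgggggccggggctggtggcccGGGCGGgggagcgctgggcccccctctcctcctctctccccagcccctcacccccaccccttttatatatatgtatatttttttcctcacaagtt

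TAATTA occurred at 2 places in the first Dlx6os1 window shown and at 1 place in the other. Of 32851 promoters of this length in the table, 4.84% held TAATTA. A GC box stood at 2 places before the Prox1 start shown and at 1 place before Sp9, and 32.7% of all promoters held one. The Sp8 start shown held neither motif, and of the other 2 Sp8 starts 1 held TAATTA and 1 a GC box. The bases G and C made up 33.2% and 34% of the Dlx6os1 windows, 40.8% of the Sp8 window and 62.4% and 64.8% of the Sp9 and Prox1 windows. These are matches of letters and not measured binding sites.

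Total counts per library lay between 20424581 and 26268377. Levels are given as CPM, the reads of a gene per 1e6 reads of the library after scaling with TMM factors. Fitted log2 fold changes compare Caspase3 with GFP, and a Benjamini-Hochberg adjusted p under 0.05 in edgeR's quasi-likelihood test counted as changed. Gad2, the gene that drives Cre, fell in the Caspase3 group. It was at 104.7 ± 12.8 CPM in the GFP group and 34.4 ± 6.67 CPM in the Caspase3 group (SD, n = 3 each; log2 fold change -1.60 ± 0.15, SE; adjusted p = 0.00371). Cortical excitatory neuron genes were present in every library, with Slc17a7, the vesicular glutamate transporter, at 1039 ± 95.9 CPM in the Caspase3 group and 999.5 ± 220 CPM in the GFP group, and none of 6 such genes passed (Tbr1 and Neurod2 were the next most abundant). GFP replicate 3 stood apart in striatal projection neuron genes. The summed level of 10 of them was 1346 CPM there, against 278.8 to 384.2 CPM in the other GFP libraries and 251.2 to 283.7 CPM in the Caspase3 libraries.

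Most of the 9 lineage genes had lower levels in the Caspase3 group, but none passed the test over all genes. Fitted log2 fold changes ran from -2.34 for Dlx5 to 0.05 for Prox1, 8 of 9 were negative, and their median was -1.80, against a median of -0.00114 and 50.2% negative over all 16721 genes. With edgeR, 0 of 9 had an adjusted p under 0.05, where 0.114% of all genes were called lower and 1.53% higher (1.64% in either direction). At an unadjusted p under 0.05, 6 of 9 were lower, where 3.91% of all genes were. The CPM ranges of the groups did not overlap, with Caspase3 below GFP, for 7 of 9 genes, where 6.29% of all genes showed this. For Dlx1 and Dlx2 this depended on the TMM scaling, because their ranges overlapped when reads were divided by the total count of the library. DESeq2 called 4 lower (Dlx5, Dlx6, Sp8 and Sp9), where it called 0.313% of all genes lower, and limma-voom called 0, where it called 0.0837% of all genes lower. With no filter on low counts edgeR called 6 lower (these 4, Dlx1 and Dlx6os1), where it called 0.79% of all genes lower. That setting also called 9 of the 10 striatal projection neuron genes lower, of which 0 were called with the filter. Its SE could be much smaller, at 0.22 against 0.46 with the filter for Dlx6os1. The plot of CPM by library shows each value of the 9 lineage genes.

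**Figure D1:**
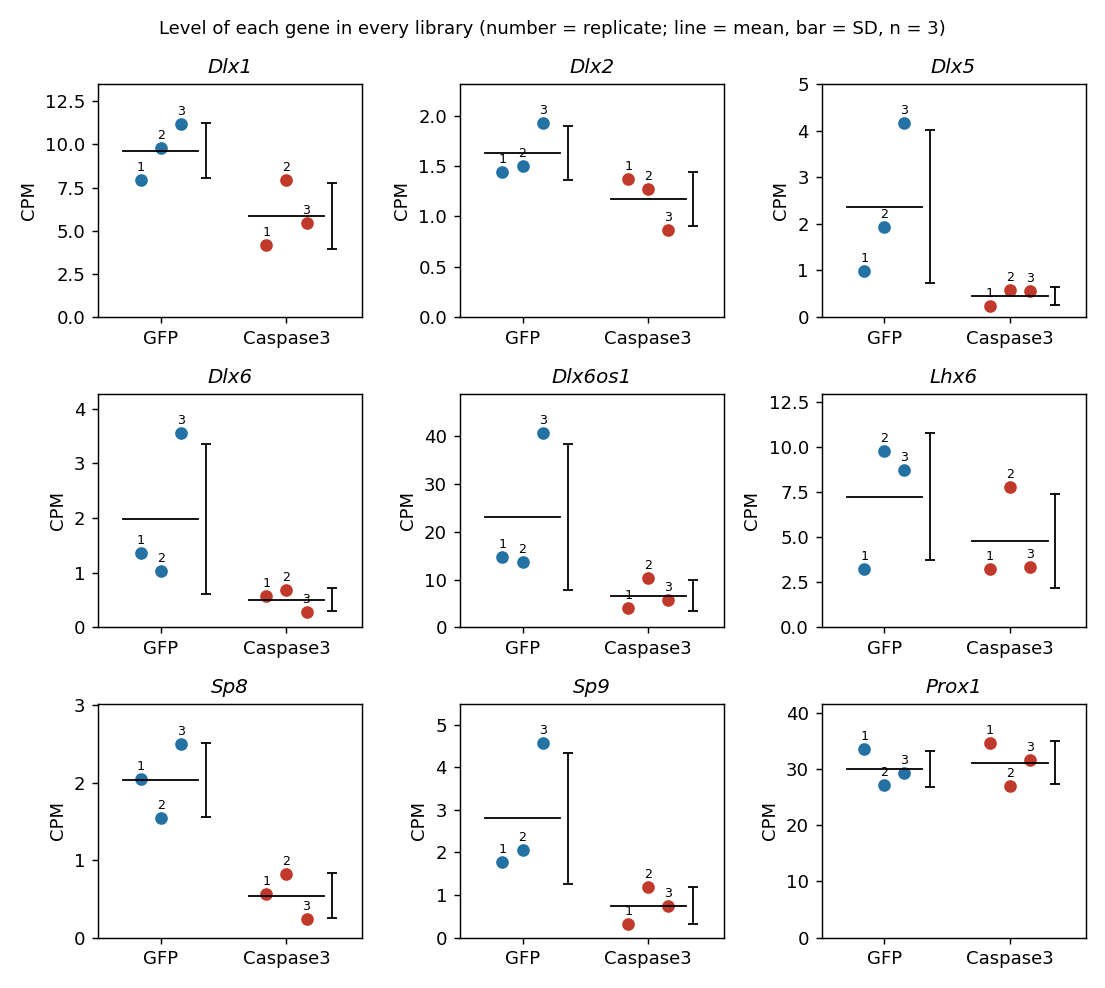
Level in CPM (vertical axis, starting at 0) of the 9 genes in the 3 GFP and 3 Caspase3 libraries, with the replicate number beside each point, the mean as a line and the SD as a bar. Every gene except Lhx6 and Prox1 was highest in GFP replicate 3 and had all 3 Caspase3 values below its GFP values, narrowly for Dlx1 and Dlx2. Lhx6 and Prox1 overlapped between the groups.

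The Dlx1 and Dlx2 pair, which acts first in the Dlx cascade of the embryo, showed the smaller differences among the Dlx genes. Dlx1 had 88, 175 and 138 reads in Caspase3 replicates 1, 2 and 3, or 4.17, 7.96 and 5.44 CPM, and 171, 247 and 255 reads in the GFP replicates, or 7.97, 9.78 and 11.2 CPM. Caspase3 replicate 2 and GFP replicate 1 all but met (7.96 and 7.97 CPM), so the groups were separated by almost nothing. The fitted log2 fold change of Dlx1 was -0.72 ± 0.24 (SE, adjusted p = 0.288).
Dlx2 had 29, 28 and 22 reads in the Caspase3 libraries, or 1.37, 1.27 and 0.868 CPM, and 31, 38 and 44 reads in the GFP libraries, or 1.44, 1.50 and 1.93 CPM. Every library thus held few Dlx2 reads, and the groups lay close together, without overlap under the TMM scaling only. Its log2 fold change was -0.48 ± 0.28 (SE, adjusted p = 0.608). Dlx1as, the antisense RNA that starts between these genes, was at 1.67 ± 0.465 CPM in the Caspase3 group and 1.93 ± 0.434 CPM in the GFP group, which overlapped (log2 fold change -0.21 ± 0.29, SE, adjusted p = 0.843).

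Dlx5 and Dlx6 act after Dlx1 and Dlx2 in the same cells. Dlx5 had 5, 13 and 14 reads in the Caspase3 libraries, or 0.237, 0.591 and 0.552 CPM, and 21, 49 and 95 reads in the GFP libraries, or 0.979, 1.94 and 4.17 CPM. The GFP libraries differed widely among themselves, with replicate 3 highest, but each exceeded all Caspase3 libraries. The log2 fold change of Dlx5 was -2.34 ± 0.56 (SE, adjusted p = 0.104).
Dlx6 had 12, 15 and 7 reads in the Caspase3 libraries, or 0.569, 0.682 and 0.276 CPM, and 29, 26 and 81 reads in the GFP libraries, or 1.35, 1.03 and 3.56 CPM. Here GFP replicate 3 was apart from the other GFP libraries, which were near each other. The log2 fold change was -1.96 ± 0.54 (SE, adjusted p = 0.173).

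Dlx6os1, also known as Evf2, is a long noncoding RNA that regulates its Dlx neighbours in the embryo, and it was the most abundant transcript of this locus. It had 84, 225 and 144 reads in the Caspase3 libraries, or 3.98, 10.2 and 5.68 CPM, and 318, 348 and 927 reads in the GFP libraries, or 14.8, 13.8 and 40.7 CPM. As for Dlx6, GFP replicate 3 was far above the other GFP libraries, and all Caspase3 libraries lay below them. The log2 fold change was -1.80 ± 0.46 (SE, adjusted p = 0.133).
The ratio of Dlx6os1 to Dlx6 reads was 10.8, 13.2 and 11.4 in the GFP libraries and 6.76, 14.5 and 19.3 in the Caspase3 libraries, with 0.5 added to each count. The group means of the log2 ratio, 3.63 ± 0.78 (Caspase3) and 3.55 ± 0.15 (GFP; SD, n = 3 each), differed by less than that spread.

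Sp8 had the smallest adjusted p of the 9 genes, ranking 316 of all tested genes by p. It had 12, 18 and 6 reads in the Caspase3 libraries, or 0.569, 0.819 and 0.237 CPM, and 44, 39 and 57 reads in the GFP libraries, or 2.05, 1.54 and 2.50 CPM. The GFP libraries lay within a narrow range for so few reads, and the highest Caspase3 library was well below the lowest of them. The log2 fold change was -1.92 ± 0.41 (SE), and the adjusted p of 0.0642 missed the threshold, but was the only one of the 9 under 0.1, where 0.239% of all genes were lower. With robust dispersions the adjusted p was 0.0494, where 0.132% of all genes were called lower.
The related factor Sp9 had 7, 26 and 19 reads in the Caspase3 libraries, or 0.332, 1.18 and 0.749 CPM, and 38, 52 and 104 reads in the GFP libraries, or 1.77, 2.06 and 4.57 CPM. The GFP values of Sp9 were more spread than those of Sp8, and GFP replicate 3 was highest for both genes. The log2 fold change of Sp9 was -1.88 ± 0.49 (SE, adjusted p = 0.143).

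Lhx6, the factor of parvalbumin and somatostatin interneurons, varied within both groups. It had 68, 171 and 85 reads in the Caspase3 libraries, or 3.22, 7.78 and 3.35 CPM, and 69, 247 and 199 reads in the GFP libraries, or 3.22, 9.78 and 8.74 CPM. GFP replicate 1 was as low as the lowest Caspase3 library, and Caspase3 replicate 2 came close to the higher GFP libraries, so the groups overlapped. The log2 fold change was -0.61 ± 0.44 (SE, adjusted p = 0.696). Of 13 tested interneuron class genes none passed, 12 had negative log2 fold changes and their median was -0.46, with Cnr1, Kcnc1 and Erbb4 the most abundant. The markers of the classes that keep Lhx6, both named after their values were seen, had different patterns. The peptide gene Sst was lowest of all in GFP replicate 1 (7.41 CPM, against 36.6 and 25.2 CPM in GFP replicates 2 and 3), and its groups overlapped. The calcium-binding protein gene Pvalb was at 4.60, 4.55 and 1.66 CPM in the Caspase3 libraries and 6.85, 10.97 and 11.7 CPM in the GFP libraries, without overlap (log2 fold change -1.46 ± 0.36, SE, adjusted p = 0.112).

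Prox1, made by caudal eminence interneurons among other cells, was the only one of the 9 genes without a negative log2 fold change. It had 730, 594 and 801 reads in the Caspase3 libraries, or 34.6, 27.0 and 31.6 CPM, and 720, 687 and 667 reads in the GFP libraries, or 33.6, 27.2 and 29.3 CPM. The groups overlapped throughout their ranges, and the log2 fold change was 0.05 ± 0.13 (SE, adjusted p = 0.923). Genes of other cells that make Prox1 were read in the same libraries, and their part in its level was not tested. All 11 oligodendrocyte lineage genes had positive log2 fold changes between 0.01 and 0.52 and none passed, with Mbp and Mobp, which encode myelin proteins, at 2439 ± 214 and 1691 ± 122 CPM in the GFP group. Of 6 dentate granule cell genes none passed, with Glis3, Lct and Trpc6 the most abundant, and C1ql2, which marks those cells, was at 0.434 to 1.68 CPM in all libraries. None of the 3 tested lymphatic genes (Pdpn, Flt4 and Lyve1) passed, and all had positive log2 fold changes, between 0.09 and 0.66. Ccl21a had no read in any library.

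**Figure D2:**
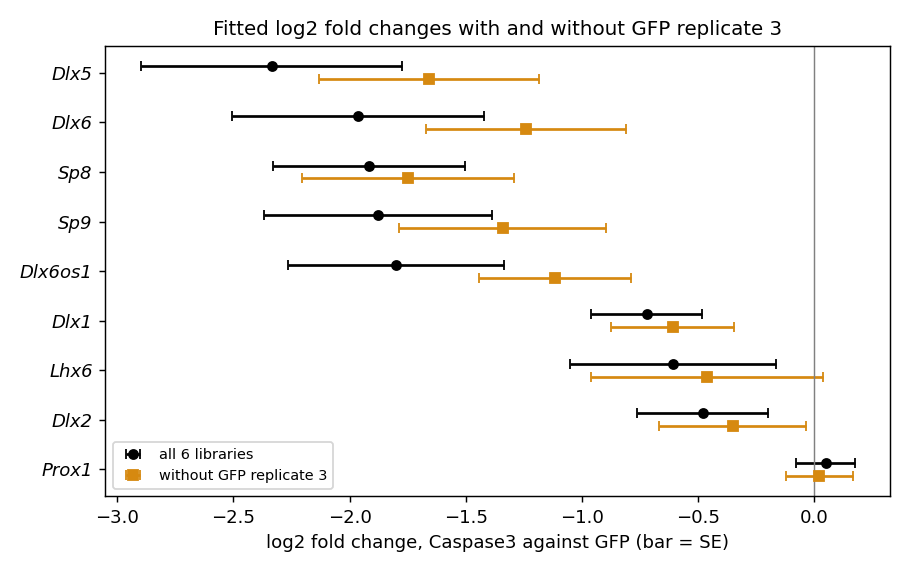
Fitted log2 fold change of each gene, Caspase3 against GFP (horizontal axis, edgeR), with the SE as a bar, over all 6 libraries (black circles) and without GFP replicate 3 (orange squares). Without that library the value moved from -2.34 to -1.66 for Dlx5 and from -1.92 to -1.75 for Sp8, and stayed near 0 for Prox1.

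GFP replicate 3, the library with high striatal transcripts, was also the highest of the 6 for 7 of the 9 lineage genes, where 16.5% of all tested genes were highest in it. Its level over the mean of the other GFP libraries was 2.99-fold for Dlx6, 2.86-fold for Dlx5, 2.85-fold for Dlx6os1 and 2.39-fold for Sp9. It was 1.39-fold for Sp8, 1.35-fold for Lhx6, 1.31-fold for Dlx2, 1.26-fold for Dlx1 and 0.964-fold for Prox1. The same ratio ran from 1.86-fold for Penk to 30.7-fold for Drd2 among 10 striatal genes, and it was 0.985-fold for Gad2. The phosphodiesterase gene Pde10a, like Penk among the more abundant of these genes, was 5.78-fold higher. All 10 striatal genes were highest in this library, none passed, and their median log2 fold change was -1.95 over all libraries and -0.45 without it. The receptors Drd2 and Adora2a, named after their values were seen, were at 23.7 and 42.4 CPM in it against 1.03 and 3.12 CPM in GFP replicate 1. The part of striatal RNA in the levels of the lineage genes was not tested.

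**Figure D3:**
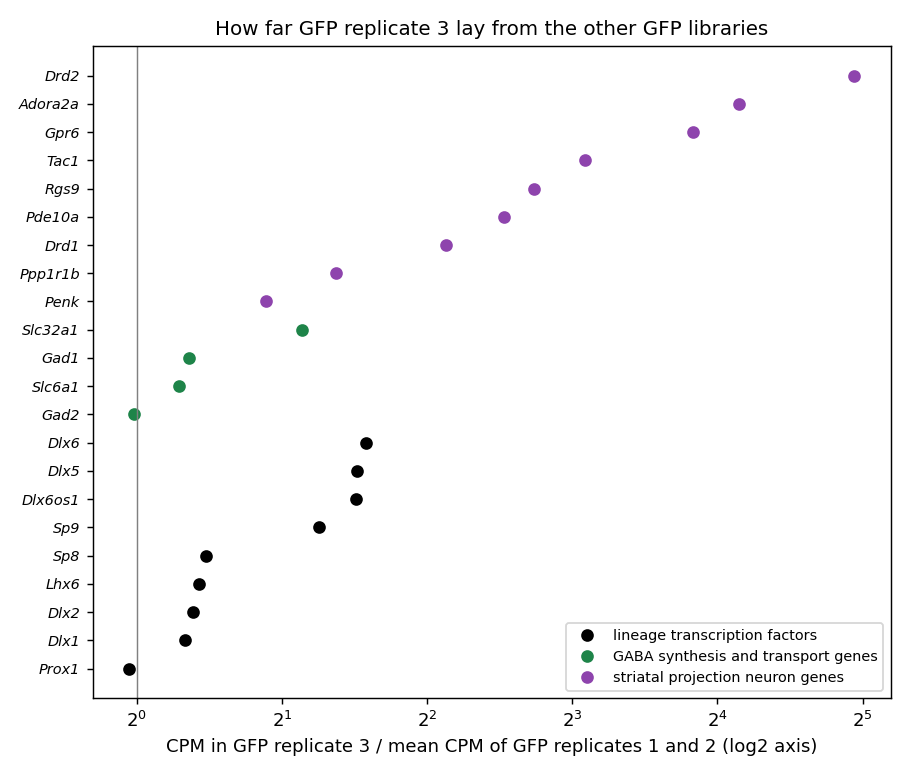
CPM in GFP replicate 3 divided by the mean CPM of GFP replicates 1 and 2 (horizontal axis, log2 scale) for the 9 lineage genes (black), 4 genes of GABA synthesis and transport (green) and 9 of the 10 striatal projection neuron genes (purple). Dlx6, Dlx5, Dlx6os1 and Sp9 lay between 2.39 and 2.99, and the other lineage genes at 1.39 or below.

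Without GFP replicate 3, the log2 fold changes were -1.75 for Sp8, -1.66 for Dlx5, -1.34 for Sp9, -1.24 for Dlx6 and -1.11 for Dlx6os1. They were -0.61 for Dlx1, -0.46 for Lhx6, -0.35 for Dlx2 and 0.02 for Prox1. None of the 9 passed in this fit (adjusted p = 0.176 to 0.975), in which 0.0761% of all genes were called lower, and the median of the 9 was -1.11. Dlx6, Dlx5 and Dlx6os1 thus moved the most with that library, and Sp8 moved little. Over the fits that left out 1 library each, Dlx5 passed without GFP replicate 1 (log2 fold change -2.70, adjusted p = 0.0381, where 0.104% of all genes were called lower), and no other gene of the 9 passed.

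Per kilobase of annotated gene length, the order of levels in the GFP group was led by Dlx6os1 at 4.47 ± 2.95 CPM per kb and Prox1 at 3.58 ± 0.386 CPM per kb (SD, n = 3), whose ranges overlapped. This lead of Dlx6os1 came from GFP replicate 3, at 7.87 CPM per kb against 2.86 and 2.66 CPM per kb in GFP replicates 1 and 2. Without that library Prox1 came first, at a mean of 3.62 CPM per kb, and Dlx6os1 next, at 2.76 CPM per kb. Over all 3 libraries Dlx1 followed at 1.79 ± 0.300 CPM per kb, below every Prox1 value, and Lhx6 at 1.51 ± 0.734 CPM per kb. Dlx5, Dlx6, Dlx2, Sp9 and Sp8 came next, from 1.04 ± 0.724 down to 0.446 ± 0.105 CPM per kb. From Dlx1 down to Sp8, each gene overlapped the next in range.
In the Caspase3 group Prox1 came first at 3.70 ± 0.455 CPM per kb and overlapped no other gene. Dlx6os1, Dlx1 and Lhx6 followed, at 1.28 ± 0.625, 1.09 ± 0.357 and 0.996 ± 0.540 CPM per kb, and overlapped in turn. Dlx2, at 0.410 ± 0.0939 CPM per kb, overlapped neither neighbour, and Dlx6, Dlx5, Sp9 and Sp8 came last, at 0.214 to 0.119 CPM per kb, each overlapping the next. In the GFP group the place of Dlx2 below Dlx6 depended on GFP replicate 3, without which the means were 0.645 CPM per kb for Dlx5, 0.517 for Dlx2 and 0.501 for Dlx6, with overlapping ranges for Dlx5 and Dlx2 and for Dlx2 and Dlx6.

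Set against Gad1, an enzyme made by GABAergic neurons of all classes, the lineage genes went different ways. Gad1 itself was at 125.0 ± 68.5 CPM in the Caspase3 group and 312.9 ± 73.6 CPM in the GFP group (log2 fold change -1.32 ± 0.34, SE, adjusted p = 0.130), and passed without Caspase3 replicate 2 (adjusted p = 0.0130). Slc32a1, the vesicular GABA transporter, was at 13.9 ± 6.20 and 37.1 ± 18.9 CPM (log2 fold change -1.42 ± 0.39, SE, adjusted p = 0.163), and its log2 ratio to Gad1 differed by 0.05 between the groups, or by 0.30 without GFP replicate 3. Per 1000 Gad1 reads there were 56.4, 39.3 and 55.9 Dlx1 reads in the Caspase3 libraries and 34.9, 28.6 and 30.6 in the GFP libraries, so that all Caspase3 values were the higher ones. Lhx6 likewise had 43.6, 38.4 and 34.5 reads per 1000 Gad1 reads in the Caspase3 libraries against 14.1, 28.6 and 23.9 in the GFP libraries, without overlap. For Dlx5, Dlx6, Dlx6os1, Sp8, Sp9, Dlx2 and Prox1 the ranges overlapped. Gad1 itself was lower in all Caspase3 libraries than in any GFP library, so a gene with a smaller fall, or none, has a higher ratio to it. The share of all genes with separated ratios was not computed, so whether the separation is particular to Dlx1 and Lhx6 is not known.
The difference of the mean log2 ratios, Caspase3 minus GFP, was 0.67 for Dlx1, 0.86 for Lhx6, 0.95 for Dlx2 and 1.48 for Prox1. It was -0.74 for Dlx5, -0.57 for Sp8, -0.47 for Sp9, -0.37 for Dlx6 and -0.29 for Dlx6os1. Dlx1, Lhx6, Dlx2 and Prox1 had fitted log2 fold changes of -0.72, -0.61, -0.48 and 0.05, against -1.32 for Gad1. Their positive differences thus mean a smaller fall than that of Gad1, or none for Prox1. The pooled SD of these log2 ratios within groups was 0.23 for Dlx1 and 0.39 for Lhx6, and 0.45 to 0.80 for the other 7 genes. Of the 5 negative differences those of Dlx5 and Sp9 exceeded their pooled SD, of 0.62 and 0.45. With Gad2 as the reference the differences were -0.55 for Dlx5, -0.28 for Sp9, -0.38 for Sp8, -0.18 for Dlx6 and -0.10 for Dlx6os1. With Slc32a1 as the reference they were -0.78, -0.52, -0.62, -0.41 and -0.34 in the same order. The positive differences stayed positive with either reference. Single libraries moved most of the differences relative to Gad1. Without GFP replicate 3 the differences of Dlx6 and Dlx6os1 were 0.03 and 0.08, that of Dlx5 was -0.34 and that of Sp9 -0.18. Without Caspase3 replicate 1 that of Dlx2 was 0.51, that of Sp8 -0.996, that of Dlx6 -0.80 and that of Sp9 -0.30. Sp8 was at -0.20 without Caspase3 replicate 3 and at -0.34 without GFP replicate 1, and Lhx6 at 0.57 without GFP replicate 1. Dlx6 was at -0.20 and -0.10 without Caspase3 replicates 2 and 3. Without GFP replicate 2 the values of Dlx6, Sp9 and Dlx6os1 were -0.81, -0.71 and -0.65. Dlx1 and Prox1 ranged from 0.59 to 0.84 and from 1.09 to 1.99 when each library was left out. No test was made of these ratios, and a low count limits those of Dlx2, Dlx5, Dlx6, Sp8 and Sp9.

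**Figure D4:**
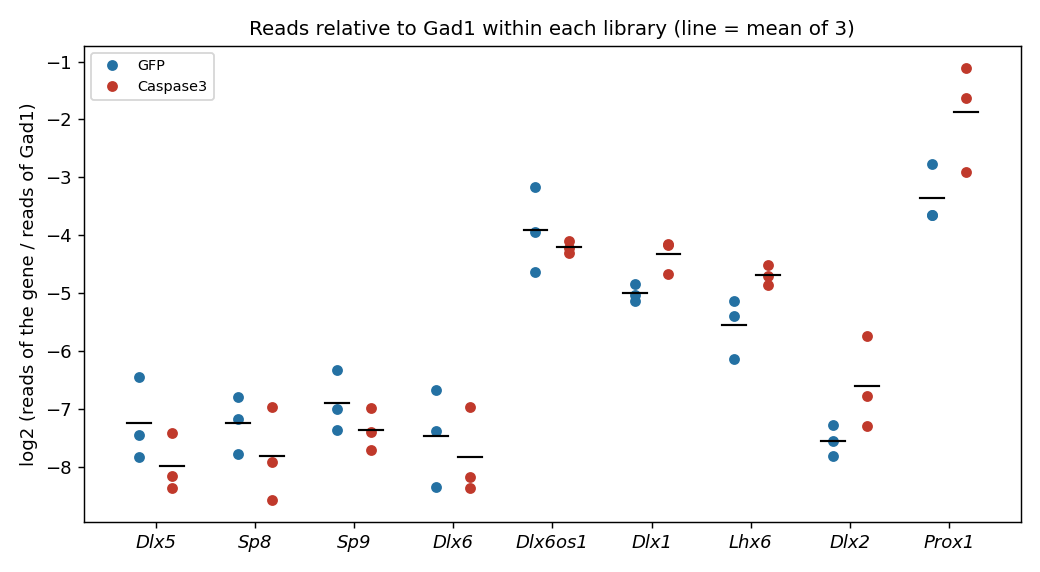
Log2 of the reads of each gene over the reads of Gad1 in the same library (vertical axis, 0.5 added to each count) for the 3 GFP (blue) and 3 Caspase3 (red) libraries, with group means as lines, ordered by the difference of means. The ratios of Dlx1 and Lhx6 were higher in all Caspase3 libraries than in any GFP library, and those of the other genes overlapped.

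Among 33 further transcription factors and antisense RNAs of the same and neighbouring lineages or the Dlx family, 32 were in the table and 26 were tested. Of these 2 rose (where 1.53% of all genes did), none fell and 24 did not pass, with a median log2 fold change of -0.13. Of those that rose, Ikzf1, a factor that macrophages and microglia also make, was at 13.6 ± 2.24 CPM in the Caspase3 group and 6.34 ± 1.64 CPM in the GFP group (log2 fold change 1.10 ± 0.20, SE, adjusted p = 0.0322). This call depends on single libraries. Ikzf1 passed with GFP replicate 1 left out and with none of the other 5 left out (adjusted p up to 0.152). Zeb2, Meis2 and Etv1, the most abundant members, had log2 fold changes of 0.01, -0.28 and -0.10.
The following were named after their values were seen. Foxp1, a forkhead factor of striatal and some cortical neurons, was at 49.4 ± 4.81 CPM in the Caspase3 group and 81.9 ± 21.2 CPM in the GFP group (log2 fold change -0.73 ± 0.17, SE, adjusted p = 0.0975). Of the 26 tested factors, 13 were highest in GFP replicate 3. Among those with a role in striatal projection neurons, Isl1, Foxp2 and Six3 were highest there, at 8.70, 42.8 and 5.53 CPM, and lower in GFP replicate 2, at 0.0396, 6.02 and 0.277 CPM. Ebf1 was not, and its level in that library was 0.929-fold the mean of the other GFP libraries. Isl1 had no read in Caspase3 replicates 2 and 3. The eminence factors Nkx2-1, Lhx8, Gsx1 and Gsx2, and the Dlx family genes Dlx3 and Dlx4, did not pass the filter. Each had at most 22 reads over the Caspase3 libraries and 28 over the GFP libraries. All 28 GFP reads of Lhx8 came from GFP replicate 3.

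**Figure D5:**
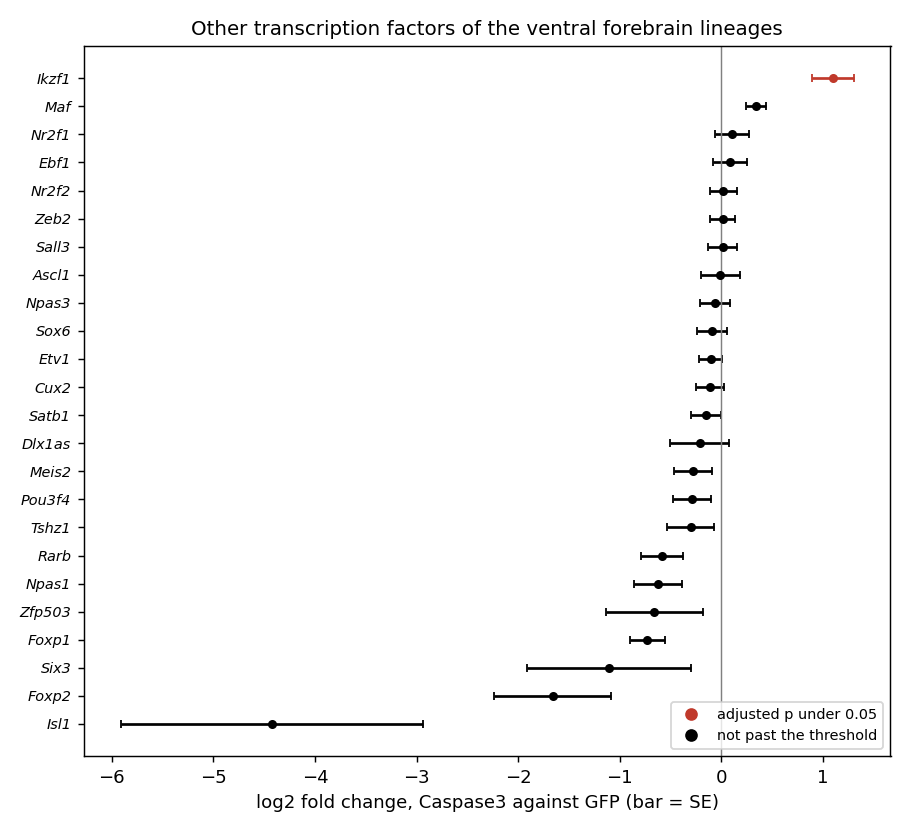
Log2 fold change, Caspase3 against GFP, with the SE as a bar (horizontal axis, edgeR over all 6 libraries) for 24 of the 26 tested transcription factor and antisense genes of the list. Ikzf1 (red) passed an adjusted p of 0.05, and the other 23 genes shown did not.

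Immature neurons express Dlx2 and Sp8 in the adult forebrain, and a list of genes that they make was also read. Not all are particular to them, as Top2a and Mki67 are made by dividing cells of any type and Tubb3 by neurons in general. Of 8 tested genes on that list, which itself holds Dlx2 and Sp8, none passed. Their log2 fold changes ran from -1.92 for Sp8 to 1.03 for Top2a, and 5 were negative. Top2a, named after its values were seen, was higher in all Caspase3 libraries than in any GFP library, where 8.96% of all genes were (SE of the log2 fold change 0.39, adjusted p = 0.378). Mki67 overlapped between the groups (log2 fold change 0.14 ± 0.40, SE, adjusted p = 0.930). Dcx, a microtubule protein of migrating neurons, was at 39.1 ± 7.67 CPM in the Caspase3 group and 42.2 ± 3.78 CPM in the GFP group, and Sox11 and Tubb3 had log2 fold changes of -0.23 and 0.05. Igfbpl1, a neuroblast gene, had 3 reads over the Caspase3 and 2 over the GFP libraries.

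Genes with the most similar pattern over the 6 libraries were sought by the root mean square difference of centred log2 CPM. Nearest to the mean of Dlx1, Dlx2, Dlx5 and Dlx6 were Rerg, Gpat3, Sox1, Arg2 and Asic4, at differences of 0.13 to 0.23. That mean was itself lower in all Caspase3 libraries than in any GFP library. Choosing genes by their match to it built in a group difference, so the p-values of these genes give no separate support. Rerg, a Ras-like GTPase, was at 1.90, 2.77 and 1.85 CPM in the Caspase3 libraries and 4.61, 5.15 and 9.58 CPM in the GFP libraries, and fell by 1.57 ± 0.31 on the log2 scale (adjusted p = 0.0463). When a library other than GFP replicate 1 was left out it missed the threshold (adjusted p up to 0.171). Sox1, a transcription factor of neural precursors and some neurons, was at 8.20, 9.91 and 7.89 CPM in the Caspase3 libraries and 11.5, 13.7 and 22.0 CPM in the GFP libraries (log2 fold change -0.86 ± 0.23, adjusted p = 0.161). Nearest to Lhx6 were Grik3, Adra1d, Cbln4, Aard and Pnoc (0.22 to 0.31), and nearest to Prox1 were Lig1, Setd1b, Pomt2, Aco1 and Pccb (0.02 to 0.04). With 6 libraries and 16721 tested genes, a close match can be found for many patterns.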

How the data were processed

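Polyadenylated RNA of 3 Caspase3 and 3 GFP libraries was analysed from the authors' deposited table of raw counts per gene. The deposited FPKM values of the same libraries, which the authors scaled to gene length and depth, were used in alternatives. HISAT2, featureCounts and DESeq2 with mm10 (GRCm38) are named per the submitters' processing notes, and their versions are not given in the sources used here. Groups came from the treatment labels.

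Low genes were removed with filterByExpr, and the rest were fitted with the quasi-likelihood test of edgeR 4.0.16 under R 4.3.3 (TMM scaling, Benjamini-Hochberg adjustment over 16721 genes, adjusted p under 0.05), after the code was tested on simulated data. SE is the log2 fold change over the root of F. DESeq2 1.42.0, limma 3.58.1, other scalings and filters, FPKM with pseudocounts of 0.1 and 1 on the log2 scale, and leaving out libraries were alternatives, and leaving out Caspase3 replicate 1 and GFP replicate 3 together was chosen after seeing the data, as were the levels per kb and the Slc32a1 ratio without GFP replicate 3. Ratios to Gad1 used counts plus 0.5. A floor of 3 counts is 0.114 to 0.147 CPM, for counting error only. The member genes and the gene lists were chosen with earlier results of these data known. All member genes were named; from other lists, up to 4 genes that passed and the 3 most abundant; and for each pattern, the 5 nearest genes whose mean reached 1 CPM, predicted genes left out. A few genes that this rule would name are not reported here.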

Additional observations from a re-analysis of the deposited data

How the results depend on the processing

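The 8 negative log2 fold changes stayed negative in 18 of 18 alternatives. That of Prox1, 0.05, ran from -0.030 (without Caspase3 replicate 1) to 0.14 (without Caspase3 replicate 2) when each library was left out, with -0.016 without GFP replicate 2, and was -0.047 without Caspase3 replicate 1 and GFP replicate 3 together. Of the 9 genes, 6 passed with no filter on low counts, 4 with DESeq2, 1 with robust edgeR (Sp8), 1 at an adjusted p under 0.1 (Sp8), and 0 to 1 when each library was left out. Over all genes, 274 passed (255 higher, 19 lower), against 913 with no filter (663 and 250), 497 with DESeq2 (398 and 99) and 170 with limma on log2(FPKM + 1) (160 and 10). Leaving out each library gave 17 (without GFP replicate 2) to 285 (without Caspase3 replicate 1), and 144 without GFP replicate 3. The median of the 9 genes, -1.80, was -0.42 with log2(FPKM + 1), a scale that shrinks low genes, from -2.24 to -1.11 when each library was left out, and -0.85 without Caspase3 replicate 1 and GFP replicate 3 together. In that last setting the Sp9 to Gad1 difference was -0.011, against -0.47 over all libraries. The cause of the other moves was not tested.

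With the sample number as a replicate block, 421 genes passed (378 higher, 43 lower, the latter 0.257% of all genes), 1 of the 9 among them (Dlx5, adjusted p = 0.0147). Same-numbered libraries correlated at 0.06, 0.18 and 0.03 in their deviations from the group means. Differently numbered ones ran from -0.14 (Caspase3 replicate 1 with GFP replicate 2) to 0.08 (Caspase3 replicate 1 with GFP replicate 3), and all but the last were negative. Deviations within a group cancel out, so a positive value with 1 library of the other group forces a negative value with another. The negative values are therefore no separate evidence of pairing. Caspase3 replicates 2 and 3 correlated best with the GFP library of their own number. The labels used here name no pairing, so the block was kept as an alternative, and whether the numbers pair the libraries stays unknown. Group sums of 36 Sp8 reads (exact Poisson 95% interval 25.2 to 49.8) and 32 Dlx5 reads in the Caspase3 libraries limit the precision of the low genes.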
